A study of Mus musculus with 12 samples.

Results

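Collagen chain genes were followed through adipocyte differentiation of 3T3-L1 cells with and without knockdown of *Fto*. They were taken as every gene of the expression table whose symbol has the form of an alpha chain of a numbered collagen, such as *Col1a1*, which gave 44 of 55487 genes. Membership rested on the symbol alone and used no expression value, but the rule was chosen with earlier results of these data known. By class, 11 genes encode fibrillar chains, 6 basement membrane chains, 6 beaded filament chains and 9 FACIT chains (fibril-associated collagens with interrupted triple helices). The other 12 belong to the multiplexin, short-chain, anchoring fibril and transmembrane classes or stand outside them.

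3T3-L1 is a line of mouse embryonic fibroblasts that is committed to the adipocyte lineage. One set of cells carried a scrambled short hairpin (shScram) and the other a hairpin against *Fto* (shFto), an RNA demethylase that acts on N6-methyladenosine. Both hairpins came from a lentiviral vector that also carries puromycin resistance, so that the control cells share the vector and the selection with the knockdown cells. RNA was collected from preadipocytes (Pre), at the mitotic clonal expansion stage (MCE) that follows hormonal induction with the MDI medium, and once the cells had differentiated (Diff), with 2 libraries in every one of the 6 groups. Nothing in the labels says that they came from separate cultures, so the p-values measure the spread between these libraries, which may be technical. Replicate 1 of shScram at the differentiation stage is named shScram in its title and *Fto* knockdown in its treatment entry, and the title was followed. The authors gave abundance as TPM, which is corrected for transcript length and scaled to one total per library, so that levels of different genes can be compared but the sequencing depth is unknown.

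*Fto* lay between 52.7 and 73.5 TPM in the 6 shScram libraries and between 5.51 and 7.47 TPM in the 6 shFto libraries. All 8 listed fibroblast markers reached 1 TPM, and their summed TPM was lower in shFto than in shScram cells at each stage, at 5994 to 5999 against 7766 to 7883, 6254 to 6561 against 9293 to 9628 and 6888 to 7253 against 9344 to 9691. Of its members, the abundant *Vim* and *S100a4* were lower in shFto libraries at each stage. *Fbn1*, *Thy1*, *Twist1* and *Pdgfrb* were instead higher at each stage, and *Fn1* and *Pdgfra* changed sides between stages. After differentiation *Vim* was at 2094 and 2238 against 4155 and 4072 TPM, and *Fbn1* at 139 and 155 against 13.3 and 14.3 TPM. All 6 endothelial markers and 5 of 6 epithelial markers stayed under 1 TPM in every library, as did *Ptprc*, *Adgre1* and *Itgam* of the 6 macrophage markers. The macrophage list was nevertheless higher in shFto cells, with sums of 22.3 to 25.0 against 5.27 to 15.6, 48.6 to 49.6 against 5.27 to 5.86 and 41.1 to 43.5 against 6.81 to 7.74 TPM. Most of this came from *Cd14*, at 47.6 and 48.4 TPM in shFto and 4.39 and 5.35 TPM in shScram cells at the MCE stage. The summed TPM of 10 adipocyte markers was higher in shFto preadipocytes, at 266 to 298 against 130.4 to 192, and lower afterwards, at 263 to 272 against 373.6 to 374.3 at the MCE stage and 414 to 454 against 1565 to 1576 at the differentiation stage, with *Lep* under 1 TPM throughout. The preadipocyte difference came from *Lpl*, at 247 and 281 against 174 and 112 TPM. There the lines overlapped for *Fabp4* (9.01 and 6.86 against 7.66 and 8.60 TPM) and *Pparg* (9.62 and 9.46 against 10.3 and 9.06 TPM). All other members were under 1 TPM in preadipocytes. A list of 8 smooth muscle markers was higher in shFto than in shScram cells at each stage. It summed to 1196 to 1301 against 350 to 544 TPM in preadipocytes, 207 to 235 against 38.0 to 42.5 at the MCE stage and 145 to 150.5 against 77.2 to 80.9 at the differentiation stage. Most of this difference came from *Acta2*, at 165 and 145 against 8.93 and 6.90 TPM at the MCE stage. *Smtn* was lower in shFto cells at that stage (17.0 and 18.7 against 27.1 and 24.2 TPM), as was *Lmod1*. *Lmod1* was also lower after differentiation, at 3.14 and 2.59 against 8.15 and 7.94 TPM. *Cnn1* and *Myh11* of that list stayed under 1 TPM. The part of these lists in the collagen results was not tested. In bulk RNA, fewer cells of a type and less RNA per cell cannot be told apart.

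Of the 6 replicate pairs, that of the shScram preadipocytes stood apart, and most collagen genes differed within it. Across genes, which are not independent replicates, log2(TPM + 1) of its libraries correlated with r = 0.939, against 0.9896 to 0.9934 in the other pairs. The difference of replicate 1 from replicate 2 ran with the GC content of the transcript (Spearman's rho = -0.69 across 15928 genes), whereas rho lay between -0.20 and 0.36 in the other pairs. The 25 collagen genes tested have a median GC content of 56.4%, compared with 49.4% over all tested genes. Of these 25, 22 were lower in replicate 1, by a median log2 difference of -0.81, while the median over all genes was -0.12. *Col16a1*, for example, was at 24.3 TPM in replicate 1 and 162 TPM in replicate 2. Since all groups share one estimate of the spread, this pair also widened the error of collagen genes at the other stages. Results are therefore given with all 12 libraries and, where they differ, from the same fit without replicate 1 of the shScram preadipocytes, called the 11-library fit. Which of the 2 libraries is closer to the cells cannot be told from TPM. The 11-library fit is thus not a corrected result, and without replicate 2 instead some values that use the shScram preadipocytes moved the opposite way. At the later stages, leaving out either library of the pair gave the same number of calls between the lines.

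**Figure D1:**
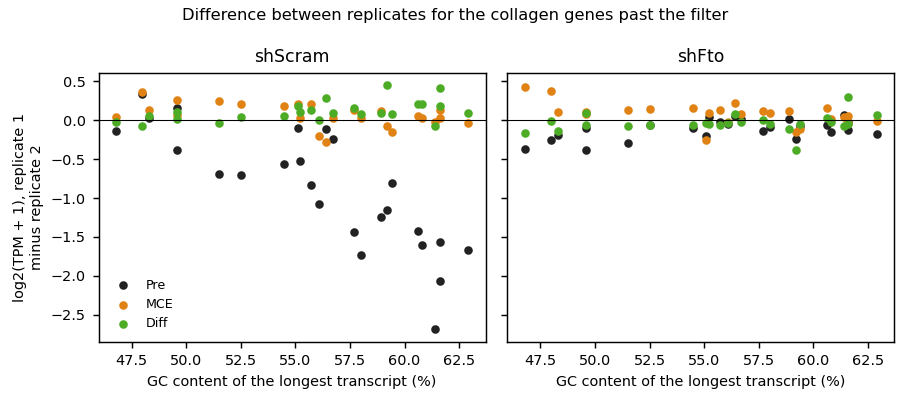
Difference between replicate 1 and replicate 2 on the log2(TPM + 1) scale (vertical axis) against the GC content of the longest transcript in percent (horizontal axis) for each collagen gene past the filter, with shScram on the left, shFto on the right and the stage in colour. The black points of the shScram preadipocytes fall with rising GC content and 22 of 25 lie below 0, whereas the other stages of shScram and all stages of shFto stay near 0.

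Collagen chains assemble in threes into a triple helix. Fibrillar chains build the banded fibrils of connective tissue, type IV chains form the network of the basement membrane, type VI chains form beaded filaments around cells, and FACIT chains sit on the surface of fibrils. In adipose tissue, preadipocytes lie in a fibril-rich matrix, and each mature adipocyte is wrapped in a basement membrane with type IV and type VI collagen.

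Of the 44 genes, 25 reached 1 TPM in at least 2 of the 12 libraries and were tested. They comprised 9 fibrillar, 3 basement membrane, 3 beaded and 4 FACIT genes, both multiplexins (*Col15a1* and *Col18a1*), and *Col7a1*, *Col8a1*, *Col23a1* and *Col28a1*. The 19 others never exceeded 0.737 TPM. These were the fibrillar *Col2a1* and *Col24a1*, the basement membrane chains *Col4a3*, *Col4a4* and *Col4a6*, and the beaded filament chains *Col6a4*, *Col6a5* and *Col6a6*. The FACIT genes *Col9a1*, *Col9a2*, *Col14a1*, *Col19a1* and *Col22a1*, and *Col8a2*, *Col10a1*, *Col13a1*, *Col17a1*, *Col25a1* and *Col26a1* were also among them. *Col9a1*, *Col13a1* and *Col26a1* were listed at 0 in all 12 libraries. Chains that join in one molecule were thus not all present: *Col9a3* was detected without *Col9a1* or *Col9a2*, whose products form type IX collagen together with it. Likewise *Col4a5* reached 189 TPM in a library, whereas *Col4a6*, whose start site lies 1342 bases away in the opposite orientation on chromosome X, never exceeded 0.474 TPM.

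To show the DNA in front of genes that differed between the lines, the 250 bases upstream of the RefSeq start site (GRCm38.p6) are printed 5' to 3' for 4 genes that were higher in shFto cells and 2 that were lower. Capitals mark the letters TATAAA of a TATA box, the letters CCAAT of a CAAT box and the letters GGGCGG of a GC box, searched on both strands. The windows lie at chr1:45311288-45311537 (plus strand) for *Col3a1*, chr2:27886175-27886424 (plus) for *Col5a1*, chr11:51289670-51289919 (plus) for *Col23a1*, chr6:8192618-8192867 (minus) for *Col28a1*, chr3:114030290-114030539 (plus) for *Col11a1* and chr1:90843972-90844221 (minus) for *Col6a3*. In the annotation they hold no exon.
Col3a1: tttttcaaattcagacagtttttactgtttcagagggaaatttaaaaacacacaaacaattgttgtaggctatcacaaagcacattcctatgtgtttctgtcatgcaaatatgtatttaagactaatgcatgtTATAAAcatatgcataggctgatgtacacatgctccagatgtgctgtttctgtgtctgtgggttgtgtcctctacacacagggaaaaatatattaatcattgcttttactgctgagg
Col5a1: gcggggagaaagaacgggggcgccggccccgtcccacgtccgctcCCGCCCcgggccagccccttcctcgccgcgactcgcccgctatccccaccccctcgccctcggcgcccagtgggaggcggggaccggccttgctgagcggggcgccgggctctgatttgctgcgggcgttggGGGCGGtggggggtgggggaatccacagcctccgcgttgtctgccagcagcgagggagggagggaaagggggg
Col23a1: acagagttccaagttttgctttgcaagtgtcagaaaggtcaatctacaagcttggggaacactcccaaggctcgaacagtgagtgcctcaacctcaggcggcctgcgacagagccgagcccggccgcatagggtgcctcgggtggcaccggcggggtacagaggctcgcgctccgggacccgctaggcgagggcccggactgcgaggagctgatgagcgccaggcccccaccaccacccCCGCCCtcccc
Col28a1: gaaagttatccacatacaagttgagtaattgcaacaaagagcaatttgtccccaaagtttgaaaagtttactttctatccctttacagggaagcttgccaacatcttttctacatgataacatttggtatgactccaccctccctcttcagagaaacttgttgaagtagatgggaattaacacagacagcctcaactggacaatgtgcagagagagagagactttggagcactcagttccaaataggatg
Col11a1: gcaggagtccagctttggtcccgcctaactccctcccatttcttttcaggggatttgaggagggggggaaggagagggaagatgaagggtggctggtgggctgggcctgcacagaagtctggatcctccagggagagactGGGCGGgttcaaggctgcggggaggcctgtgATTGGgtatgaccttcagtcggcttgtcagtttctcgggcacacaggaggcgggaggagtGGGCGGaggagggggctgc
Col6a3: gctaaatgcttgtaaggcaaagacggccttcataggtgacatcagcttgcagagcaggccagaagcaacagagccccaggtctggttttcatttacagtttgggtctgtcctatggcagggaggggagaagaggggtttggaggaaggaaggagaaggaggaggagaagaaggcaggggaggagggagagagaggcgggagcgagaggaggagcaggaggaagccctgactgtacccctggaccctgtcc

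The 6 windows differed widely in composition. The *Col3a1* window was 35.2% GC and held the TATA box letters, which begin 117 bases upstream of the start site. The *Col5a1* window, of a chain that joins fibrils with the same partners, was 76.4% GC and held the GC box letters at 205 and 73 bases. *Col11a1* had GC box letters at 110 and 19 bases and CAAT box letters at 79 bases. *Col23a1* had GC box letters at 11 bases, and *Col28a1* and *Col6a3* had none of these letters. Promoter entries matched 35 of the 44 genes, in 38 windows, and *Col12a1*, *Col1a1* and *Col5a2* had no entry. The GC box letters were found in 22 of the 38 windows and in 32.7% of all 32817 windows, the CAAT box letters in 13 against 33.8%, and the TATA box letters in 5 against 12.4%. The median GC content was 59.0% in the collagen windows and 52.4% in all windows. None of the 3 letter strings searched was held by all 4 higher genes.

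Together the 44 genes made up between 0.650% and 1.78% of all TPM. The sum was 6495 and 11626 TPM in shScram preadipocytes and 14651 and 13669.5 TPM at the differentiation stage, beside 10583 and 10931 and then 17259 and 17818 TPM in shFto cells. Both libraries of the last stage were thus above both preadipocyte libraries in each line. The lead gene was *Col1a2* in all 4 preadipocyte libraries. It was *Col6a1* in the 4 shScram libraries of the later stages and *Col3a1* in the 4 shFto libraries. This lead gene ranked between the 20th and the 52nd of all genes in its library.

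The class make-up differed between stages and between the lines. Fibrillar chains held 67.4% and 70.8% of collagen TPM in shScram preadipocytes and 66.5% and 66.0% in shFto preadipocytes. At the MCE stage the shares were 27.3% and 25.7% with shScram and 46.5% and 46.2% with shFto. At the differentiation stage the shares were 42.2% and 42.5% in shScram and 49.9% and 50.7% in shFto cells. The fibrillar share was therefore close in both lines before induction and lower in shScram than in shFto libraries after it. The beaded filament share moved the opposite way. It was 25.2% and 18.3%, then 53.3% and 54.9%, then 39.3% and 39.5% in shScram cells at the successive stages. In shFto cells it was 14.3% and 13.8%, then 30.0% and 30.5%, then 29.7% and 29.6%, lower than in shScram at each stage without overlap. Basement membrane chains held 6.33% and 8.71% in shScram preadipocytes and 14.96% to 15.7% afterwards, whereas in shFto cells they held 16.01% to 20.2% at all stages. FACIT chains stayed under 1.83% in every library. These shares are descriptions and were not tested.

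**Figure D2:**
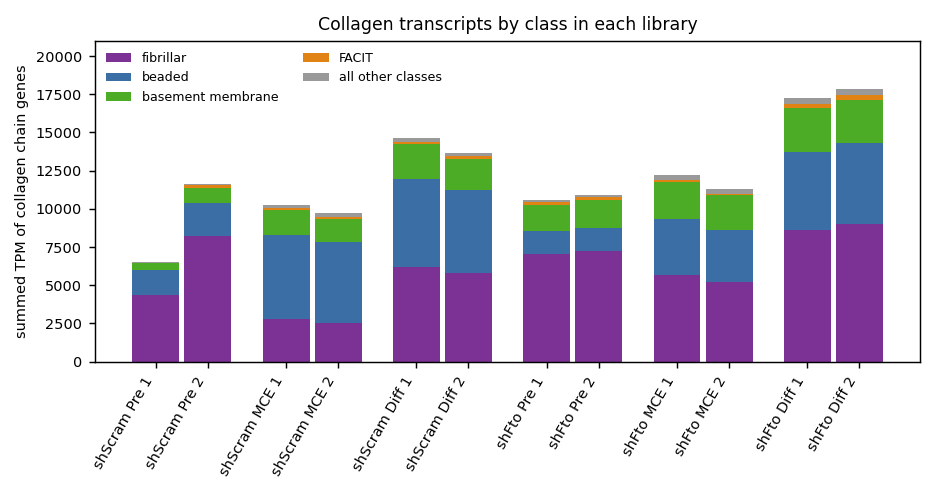
Summed TPM of the collagen chain genes in each of the 12 libraries (bars, vertical axis from 0), stacked by class. The fibrillar block shrinks at the MCE stage in shScram cells, to 27.3% and 25.7% of the sum, more than in shFto cells, where it holds 46.5% and 46.2%.

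Comparison of shFto with shScram cells asked which collagen genes differed between the lines at each stage. The labels do not name the *Fto* hairpin that was sequenced. Loss of *Fto* cannot be told apart from other differences between the lines. More collagen genes were higher than lower in shFto cells at all 3 stages. A gene was called at an adjusted p under 0.05 by limma on log2(TPM + 1), with Benjamini-Hochberg adjustment over all 15968 genes tested. In preadipocytes 14 of the 25 genes were higher and 2 lower, 64.0% of those tested against 28.2% of all genes (15.9% higher and 12.3% lower). At the MCE stage 8 were higher and 1 lower, 36.0% against 17.8% (10.5% and 7.26%). At the differentiation stage 10 were higher and 2 lower, 48.0% against 21.2% (11.9% and 9.31%). The median log2 fold change of the 25 genes was 0.88, 0.46 and 0.70 at the successive stages, beside 0.08, 0.05 and 0.03 over all genes tested. The 6 genes *Col3a1*, *Col5a2*, *Col12a1*, *Col20a1*, *Col23a1* and *Col28a1*, were called higher at every stage, and no gene was called lower at every stage. *Col15a1* and *Col23a1* reached 1 TPM in shFto libraries alone, so that they could enter the test only by being higher there. Without these 2 genes the counts were 13 higher and 2 lower, 7 and 1, and 8 and 2 of 23, with medians of 0.88, 0.44 and 0.68. With them, at least 1 call was made for 18 genes, and 7 were called at no stage, namely *Col1a1*, *Col1a2*, *Col4a5*, *Col5a3*, *Col6a2*, *Col16a1* and *Col18a1*.

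In the 11-library fit the counts were 13 higher and 7 lower in preadipocytes (29.0% of all genes called), 12 and 7 at the MCE stage (41.0%) and 17 and 2 at the differentiation stage (45.7%). Without replicate 2 instead, 19 were higher and 2 lower in preadipocytes (62.8%). Median-ratio scaling between libraries gave 8 higher and 3 lower at the MCE stage (18.4% of all genes called). *Col5a2*, *Col12a1* and *Col28a1* were called at all stages with each of the 12 libraries left out in turn. Calls of *Col3a1*, *Col4a1*, *Col4a2* and *Col5a1* in preadipocytes were lost without either shFto library of that stage. Without any one of the 4 libraries compared, the MCE call of *Col5a1* was lost, as were the calls of *Col3a1*, *Col7a1*, *Col8a1* and *Col20a1* after differentiation.

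**Figure D3:**
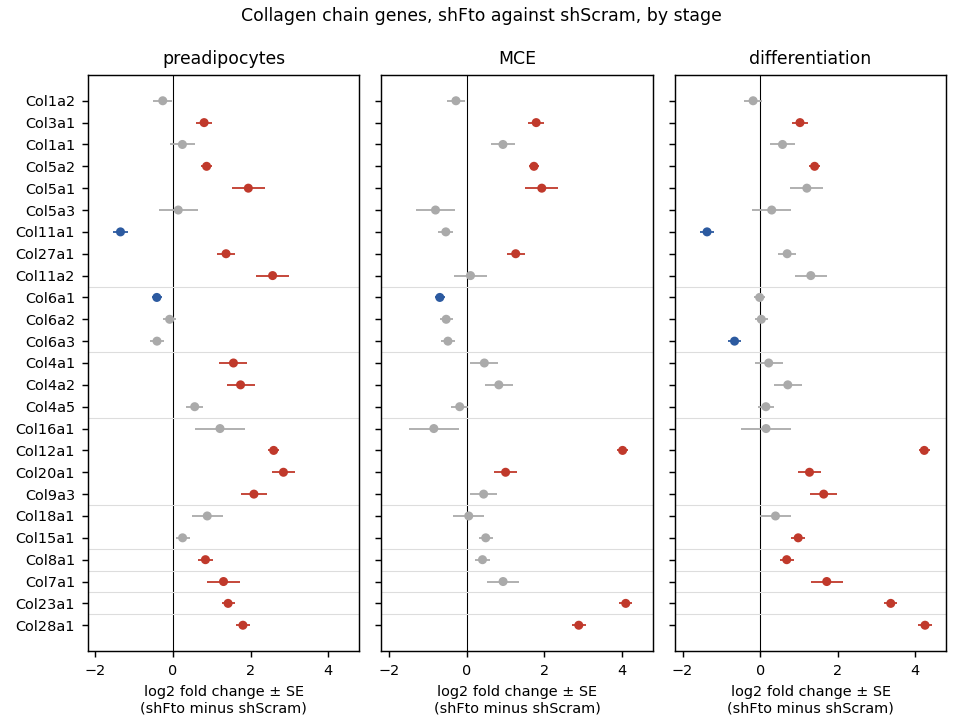
Log2 fold change of shFto minus shScram on the log2(TPM + 1) scale (horizontal axis, bars are SE) for the 25 collagen genes tested, ordered by class, at each stage. Red points were called higher, blue points lower and grey points were not called. Col12a1, Col23a1 and Col28a1 lie farthest to the right at the later stages, and the 3 type VI genes lie near or left of 0.

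Among the 9 fibrillar genes tested, 5 were higher and 1 lower in shFto preadipocytes, 4 and 0 at the MCE stage, and 2 and 1 at the differentiation stage. The type III chain and the type V chain *Col5a2* were higher at every stage, while the type I chains did not pass the test. *Col3a1* encodes the only chain of type III collagen, which forms thin fibrils with type I. In preadipocytes it was at 780 and 1272 TPM with shScram against 1701 and 1769 TPM with shFto. At the MCE stage it was at 859 and 747 against 2915 and 2647 TPM, and at the differentiation stage at 1863 and 1814 against 3667 and 3825 TPM. The shFto libraries were above the shScram libraries at each stage, with a log2 fold change of 0.80 (SE 0.21, adjusted p = 0.026), 1.79 (SE 0.21, adjusted p = 0.000652) and 1.03 (SE 0.21, adjusted p = 0.00927). The 11-library fit gave 0.45 (adjusted p = 0.0134) in preadipocytes.

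*Col5a1* and *Col5a2* encode the chains of type V collagen, which starts fibrils and limits their width. *Col5a2* was at 281 and 365 against 563 and 606 TPM in preadipocytes. It was at 149.8 and 143 against 503 and 476 TPM at the MCE stage, and at 248 and 245 against 641 and 668 TPM at the differentiation stage. All shFto values were above all shScram values, and the log2 fold change was 0.86 (SE 0.14), 1.74 (SE 0.14) and 1.40 (SE 0.14), with adjusted p of 0.00372, 7.57e-05 and 0.000174. *Col5a1* hardly changed with stage in shFto cells, where it was at 545 and 582, then 581 and 546, then 600 and 621 TPM. In shScram cells it was at 79.5 and 268, then 148 and 145, then 272 and 258 TPM. It was called higher in preadipocytes (1.94, SE 0.43, adjusted p = 0.0134) and at the MCE stage (1.94, SE 0.43, adjusted p = 0.0139). At the differentiation stage its value of 1.20 had an adjusted p of 0.0792 with all libraries and of 5.36e-07 in the 11-library fit, where the preadipocyte value was 1.07.

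*Col1a1* and *Col1a2* encode the chains of type I collagen, the main fibril protein of connective tissue, and neither was called between the lines at any stage. *Col1a2* was at 2311 and 4129 against 2548 and 2589 TPM in preadipocytes, at 1206 and 1046 against 972 and 887 TPM at the MCE stage and at 2669 and 2447 against 2202 and 2306 TPM at the differentiation stage. Its log2 fold change lay between -0.27 and -0.18. In preadipocytes the shFto libraries lay between the shScram libraries, and afterwards they lay below them. *Col1a1* was at 873 and 2066 against 1595 and 1577 TPM in preadipocytes, at 321 and 294 against 613 and 565 TPM at the MCE stage and at 945 and 884 against 1309 and 1419 TPM at the differentiation stage. It gave log2 fold changes of 0.24, 0.94 and 0.58, with adjusted p of 0.579, 0.0775 and 0.243. With 11 libraries the preadipocyte value turned to -0.38 (adjusted p = 0.0154), and the values at the later stages passed the test. *Col1a2* was then called lower in preadipocytes (-0.68) and at the MCE stage (-0.27, adjusted p = 0.0379).

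Since the chains moved unequally, their ratios differed between the lines. *Col3a1* over *Col1a2* was 0.337 and 0.308 in shScram preadipocytes, 0.712 and 0.714 at the MCE stage and 0.698 and 0.741 at the differentiation stage. In shFto cells it was 0.668 and 0.683, then 3.00 and 2.99, then 1.67 and 1.66. The ratio was thus higher in shFto libraries at each stage, and replicates lay close together even in the pair that stood apart. Type V over type I, as the sum of *Col5a1* and *Col5a2* over that of *Col1a1* and *Col1a2*, was 0.113 and 0.102, 0.195 and 0.214, and 0.144 and 0.151 in shScram cells. It was 0.267 and 0.285, 0.683 and 0.704, and 0.353 and 0.346 in shFto cells. *Col1a1* over *Col1a2* ranged from 0.266 to 0.5004 in shScram and from 0.594 to 0.637 in shFto libraries, although both chains enter the same molecule. These ratios were chosen after the values were seen and carry no test.

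**Figure D4:**
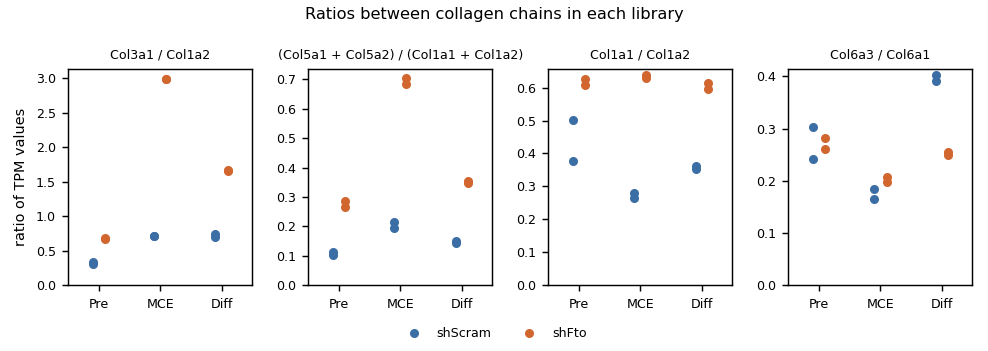
Ratios of TPM between collagen chains in each library (vertical axes from 0) at the 3 stages, with shScram in blue and shFto in orange. Col3a1 over Col1a2 reaches 3.00 and 2.99 in shFto cells at the MCE stage against 0.712 and 0.714 in shScram cells, whereas Col6a3 over Col6a1 is lower in shFto only at the differentiation stage.

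The other fibrillar genes were less abundant. *Col11a1*, a chain of the cartilage fibril type XI that also joins type V chains, was the fibrillar gene that fell. It was at 27.9 and 22.0 against 8.26 and 10.0 TPM in preadipocytes, at 10.4 and 7.89 against 6.89 and 5.11 TPM at the MCE stage and at 45.4 and 48.0 against 17.4 and 17.6 TPM at the differentiation stage. All shFto libraries were below the shScram libraries of their stage. The change was -1.36 in preadipocytes (SE 0.19, adjusted p = 0.00213) and -1.37 at the differentiation stage (SE 0.19, adjusted p = 0.00126), while -0.54 at the MCE stage did not pass (adjusted p = 0.0911). *Col11a2*, its partner chain, was higher in shFto preadipocytes by 2.57 (SE 0.42, adjusted p = 0.00401), with 17.3 and 19.6 against 0.848 and 4.84 TPM. It was not called at the MCE stage, at 3.72 and 3.74 against 3.36 and 3.46 TPM, nor at the differentiation stage, at 20.5 and 19.5 against 7.78 and 7.22 TPM (1.31, adjusted p = 0.0551). *Col27a1*, another fibrillar chain, was called higher in preadipocytes (1.36) and at the MCE stage (1.26). *Col5a3*, the third type V chain, was not called with all libraries, at 0.13, -0.80 and 0.30. The 11-library fit gave -0.90 in preadipocytes and -0.80 at the MCE stage, both called lower, and called it higher at the differentiation stage (0.30, adjusted p = 0.0105).

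**Figure D5:**
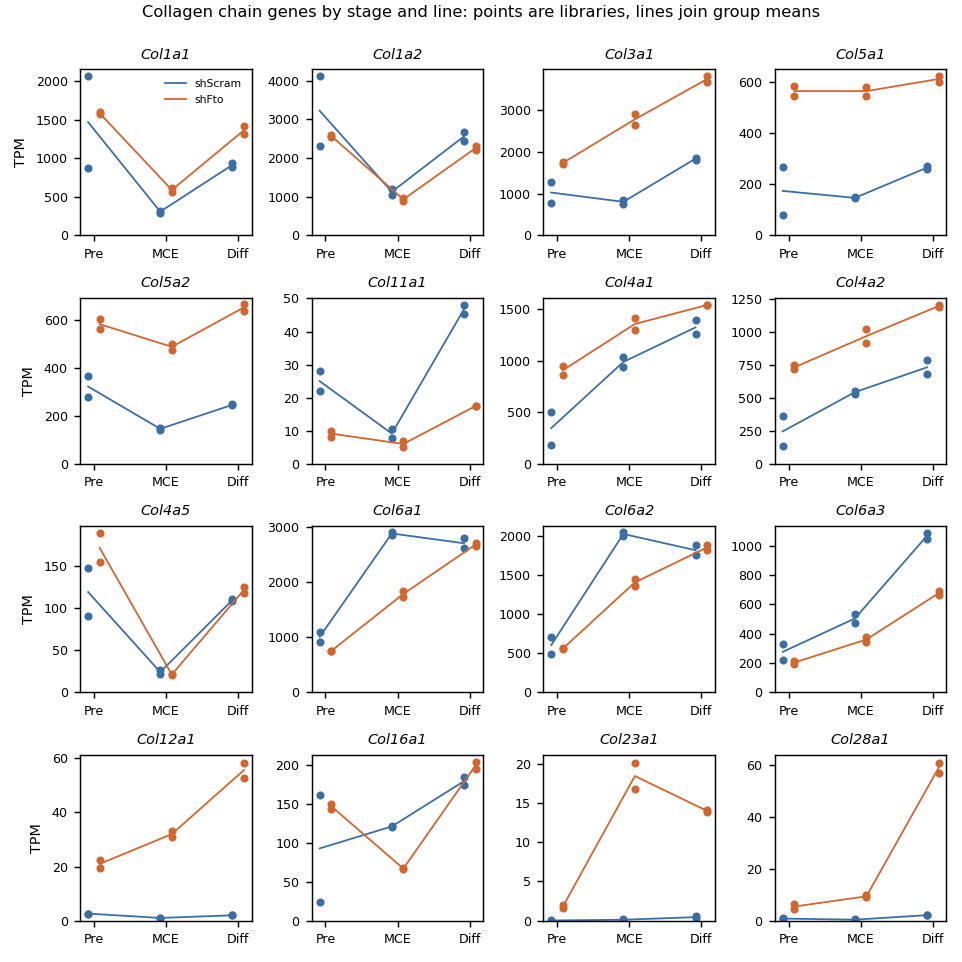
TPM (vertical axes from 0, a scale of its own for each gene) of 16 collagen genes at the 3 stages. Points are the 2 libraries of a group and lines join group means, with shScram in blue and shFto in orange. Col3a1, Col5a1, Col5a2, Col12a1, Col23a1 and Col28a1 lie higher in shFto, Col11a1 and Col6a3 lower, and the wide blue pairs at the Pre stage are the shScram preadipocytes.

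In the basement membrane class, the 2 chains of the common type IV network were higher in shFto preadipocytes, and no member was called at the later stages. *Col4a1* was at 187 and 505 against 863 and 950.0 TPM in preadipocytes, a log2 fold change of 1.56 (SE 0.36, adjusted p = 0.0163). At the MCE stage it was at 1034 and 942 against 1413 and 1299 TPM (0.46, adjusted p = 0.46), and at the differentiation stage at 1392 and 1254 against 1542 and 1538 TPM (0.22, adjusted p = 0.728). *Col4a2* was at 133 and 360 against 717 and 748 TPM in preadipocytes (1.74, SE 0.36, adjusted p = 0.0109). It was at 555 and 534 against 1025 and 915 TPM at the MCE stage and at 786 and 679 against 1207 and 1189 TPM at the differentiation stage, with values of 0.83 and 0.71 that did not pass. For both genes the shFto libraries were above the shScram libraries at every stage. In the 11-library fit the preadipocyte values were 0.84 for *Col4a1* and 1.02 for *Col4a2*. *Col4a1* was then also called at the MCE stage, and *Col4a2* at both later stages. *Col4a1* over *Col4a2* was 1.40 to 1.86 in shScram and 1.20 to 1.42 in shFto libraries. The 2 genes lie head to head on chromosome 8 of GRCm38 (11198423 to 11312826 and 11312805 to 11449287), with overlapping first exons on opposite strands. Whether the authors counted by strand is not given in the sources used here, so the split of reads in the overlap is uncertain.

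*Col4a5*, which belongs to a specialised type IV network, was not called between the lines (0.56, -0.18 and 0.15). It fell at the MCE stage in both lines and returned. Its values were 90.7 and 147.5, 26.1 and 21.9, and 108 and 111 TPM in shScram cells, and 154 and 189, 22.1 and 20.0, and 118 and 125 TPM in shFto cells. The drop from preadipocytes to the MCE stage had a log2 change of -2.23 (adjusted p = 9.23e-05) in shScram and -2.96 (adjusted p = 2.03e-05) in shFto cells, whereas *Col4a1* did not fall in either line.

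The beaded filament genes did not share the rise. *Col6a1*, *Col6a2* and *Col6a3* encode the 3 chains of the common type VI molecule. *Col6a1* was at 918 and 1088 against 749 and 745 TPM in preadipocytes, and at 2898 and 2852 against 1832 and 1730.2 TPM at the MCE stage. Both differences were called, at -0.42 (SE 0.13, adjusted p = 0.0455) and -0.69 (SE 0.13, adjusted p = 0.00764). At the differentiation stage the lines met, at 2787 and 2609 against 2649 and 2698 TPM (-0.01, adjusted p = 0.96). *Col6a2* had a similar course, with 494 and 709.7 against 565 and 549 TPM, 2043 and 2001 against 1445 and 1362 TPM, and 1882 and 1747 against 1822 and 1879 TPM. It was not called at any stage with all libraries, and gave -0.35 in preadipocytes (adjusted p = 0.0156) and -0.53 at the MCE stage (adjusted p = 0.000264) in the 11-library fit. *Col6a3* was at 222 and 329 against 195 and 210.1 TPM in preadipocytes, at 534 and 472 against 379 and 341 TPM at the MCE stage and at 1087 and 1047 against 661 and 689.6 TPM at the differentiation stage. The shFto libraries were below the shScram libraries at each stage, and the difference was called at the differentiation stage (-0.66, SE 0.18, adjusted p = 0.0295). *Col6a3* over *Col6a1* was 0.390 and 0.401 in shScram and 0.249 and 0.256 in shFto cells at that stage. The calls of *Col6a1* in preadipocytes and of *Col6a3* at the differentiation stage were lost under 14 and 10 of the 22 alternative settings.

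Of the 4 FACIT genes tested, 3 were higher in preadipocytes, 2 at the MCE stage and 3 after differentiation, and none of the 4 was called lower. *Col12a1* encodes type XII collagen, which lies on type I fibrils. It stayed at 2.67 and 2.61, 1.13 and 0.943, and 2.07 and 1.96 TPM in shScram cells, and was at 19.5 and 22.4, 33.3 and 30.8, and 52.8 and 58.4 TPM in shFto cells. No shFto value came near a shScram value. On the log2 scale the difference was 2.59 (SE 0.14, adjusted p = 1.72e-05), 4.02 (SE 0.14, adjusted p = 1.39e-06) and 4.23 (SE 0.14, adjusted p = 8.89e-07), and the ratio of mean TPM was 7.96, 30.9 and 27.6. *Col20a1*, another FACIT gene, was at 0.557 and 2.27, 0.733 and 0.998, and 5.51 and 5.51 TPM in shScram cells. In shFto cells it was at 14.9 and 15.5, 2.69 and 2.77, and 14.5 and 14.9 TPM. It was called at each stage, at 2.84, 1.00 and 1.27, but the call at the MCE stage (adjusted p = 0.0431) was lost under 12 of the 22 alternative settings. *Col9a3*, a chain of cartilage type IX, was at 8.05 and 9.70 against 0.556 and 2.46 TPM in preadipocytes (2.08, SE 0.34, adjusted p = 0.00422). At the MCE stage it was under 1 TPM in both lines, at 0.582 and 0.755 against 0.199 and 0.260 TPM, and at the differentiation stage it was at 4.78 and 6.51 against 1.47 and 0.813 TPM (1.64, SE 0.34, adjusted p = 0.0096). Of 6 cartilage cell markers, *Acan*, *Matn1*, *Matn3* and *Snorc* stayed under 1 TPM in all libraries, *Comp* reached 3.20 TPM and *Sox9* lay between 29.6 and 62.0 TPM. The list summed to 31.7 to 38.0 TPM in shFto against 37.4 to 55.7 TPM in shScram preadipocytes, and to 29.9 to 32.7 against 56.2 to 65.2 TPM later. *Col16a1*, the most abundant FACIT gene, showed no called difference. It was at 24.3 and 162 against 151 and 144 TPM in preadipocytes, at 120.3 and 122 against 68.2 and 66.0 TPM at the MCE stage and at 175 and 185 against 195 and 205 TPM at the differentiation stage. Its value of -0.84 at the MCE stage was called in the 11-library fit (adjusted p = 4.14e-06).

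Outside the 4 large classes, *Col28a1* and *Col23a1* stood out in size. *Col28a1* encodes type XXVIII collagen, known from nerve. It was at 0.949 and 0.754, 0.539 and 0.287, and 2.27 and 2.04 TPM in shScram cells and at 4.63 and 6.37, 9.81 and 9.08, and 61.1 and 57.0 TPM in shFto cells. The difference widened with stage, at 1.80 (SE 0.18, adjusted p = 0.000367), 2.89 (SE 0.18, adjusted p = 2.21e-05) and 4.25 (SE 0.18, adjusted p = 1.39e-06). *Col23a1*, a transmembrane collagen of the cell surface, never exceeded 0.547 TPM in shScram cells. In shFto cells it was at 1.57 and 1.97, 16.7 and 20.1, and 13.8 and 14.2 TPM, with differences of 1.42, 4.10 and 3.37. It passed the filter on low values through shFto libraries alone, so its calls follow in part from the filter and its differences are given as a description. The log2(TPM + 1) scale understates the change of genes this low in the control.

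*Col7a1*, whose product anchors epithelial basement membranes, was not called at the MCE stage, at 1.49 and 1.28 against 3.66 and 3.49 TPM. It was at 0.862 and 4.53 against 6.83 and 6.97 TPM in preadipocytes and at 3.57 and 2.42 against 13.4 and 10.7 TPM at the differentiation stage. It was called at both stages (1.30, SE 0.41, adjusted p = 0.0456, and 1.72, SE 0.41, adjusted p = 0.0184), and the former call was lost under 17 of the 22 alternative settings, with a value of 0.51 (adjusted p = 0.0978) in the 11-library fit. *Col8a1*, a short-chain collagen of vessel walls and endothelia, was called higher in preadipocytes (0.83) and at the differentiation stage (0.68). At the latter stage it was at 5.56 and 5.69 against 9.07 and 10.2 TPM. Of the multiplexins, *Col15a1* had a difference of 0.98 at the differentiation stage, at 2.16 and 1.99 against 0.718 and 0.413 TPM, and it too passed the filter through shFto libraries alone. *Col18a1*, the precursor of endostatin, was not called, with 0.88, 0.05 and 0.40. Exons of *Col3a1*, *Col5a1*, *Col7a1*, *Col9a3*, *Col15a1* and *Col20a1* overlap other annotated genes, so a part of their values could belong to these neighbours.

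From preadipocytes to the MCE stage type VI chains rose and type I chains fell in both lines. In shScram cells 7 genes rose and 7 fell, 56.0% of the 25 against 39.1% of all genes (12.2% rose and 26.9% fell). In shFto cells 10 rose and 7 fell, 68.0% against 28.7% (8.8% and 19.9%). Without *Col15a1* and *Col23a1*, which passed the filter through shFto libraries alone, 8 rose and 7 fell of 23 in shFto cells. The counts in shScram cells were then the same. The median log2 change over all genes was -0.17 and -0.18 in these steps, and changes of collagen genes are read beside it. *Col6a1* rose by 1.52 in shScram and 1.25 in shFto, *Col6a2* by 1.77 and 1.33, and *Col6a3* by 0.89 and 0.83. *Col18a1* rose by 2.93 and 2.11. *Col1a1* had changes of -2.12 in shScram and -1.43 in shFto, and *Col1a2* of -1.46 and -1.47. *Col8a1* had the lowest values, -3.08 and -3.51, and went from 24.6 and 27.3 to 2.22 and 2.13 TPM in shScram and from 41.3 and 53.5 to 3.90 and 2.63 TPM in shFto cells. Other genes were called in shScram cells and not in shFto cells, or the reverse. *Col5a2* changed by -1.13 in shScram and gave -0.26 in shFto (adjusted p = 0.209), and *Col4a1* rose by 1.68 in shScram and gave 0.58 in shFto (adjusted p = 0.277). *Col3a1* gave -0.31 in shScram (adjusted p = 0.266) and rose by 0.68 in shFto. The difference between the lines in this step was called for *Col5a2* (0.87, adjusted p = 0.0386) and was not called for *Col4a1* (-1.10, adjusted p = 0.242) or *Col3a1* (0.99, adjusted p = 0.101). The 11-library fit called 7 genes higher and 14 lower in shScram cells (48.1% of all genes called), and 13 higher and 11 lower in shFto cells (51.1%). *Col5a1* was then lower at the MCE stage in shScram cells (-0.87), as was *Col3a1* (-0.67).

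From the MCE to the differentiation stage 12 collagen genes rose in shScram cells and 14 in shFto cells, 48.0% and 56.0% of the 25 against 25.2% and 26.7% of all genes. Limma called 0 lower in either line, while 5.22% and 6.48% of all genes were lower and 20.0% and 20.2% higher. The median over all genes was 0.23 and 0.17. Type I chains came back in both lines, *Col1a1* by 1.57 in shScram and 1.21 in shFto, and *Col1a2* by 1.19 and 1.28. *Col4a5* rose by 2.15 and 2.48, *Col11a1* by 2.24 and 1.41, and *Col8a1* by 1.06 and 1.34. *Col6a3* rose in both lines, by 1.09 and 0.91, whereas *Col6a1* rose only in shFto cells by the test (0.59) and gave -0.09 in shScram cells. The difference between the lines in this step was not called for *Col6a1* (0.68, adjusted p = 0.112). With 11 libraries 19 genes rose and 1 fell in shScram cells (52.0% of all genes called), and 21 rose and 0 fell in shFto cells (50.9%).

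Whether the difference between the lines changed from one stage to the next was tested as an interaction. From preadipocytes to the MCE stage 6 of the 25 collagen genes were called, 24.0% against 5.11% of all genes (2.52% positive and 2.59% negative). Without *Col15a1* and *Col23a1*, which passed the filter through shFto libraries alone, the counts were 3 positive and 2 negative of 23. The difference between shFto and shScram grew for *Col5a2*, *Col12a1*, *Col23a1* and *Col28a1* and shrank for *Col11a2* and *Col20a1*. From the MCE to the differentiation stage it grew for *Col28a1* alone, 1 gene or 4.0% of the 25 against 2.49% of all genes (1.47% and 1.01%). The change for *Col3a1* from preadipocytes to the MCE stage was 0.99 (SE 0.30, adjusted p = 0.101). The 11-library fit called 10 genes in the former step (14.1% of all genes) and 12 in the latter (17.1%), and *Col3a1* was then called in both, at 1.35 and -0.77.

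Genes that act on collagen chains were counted in the same way, beside 15.9% higher and 12.3% lower of all genes in preadipocytes, 10.5% and 7.26% at the MCE stage and 11.9% and 9.31% after differentiation. Of 19 genes for modification and folding in the endoplasmic reticulum, 18 were tested. In preadipocytes 10 were called higher and 0 lower with shFto, at the MCE stage 8 and 1, and at the differentiation stage 6 and 1. *Plod2*, which hydroxylates lysines of the telopeptides, was higher by 1.78, 2.22 and 2.15. *Serpinh1*, the collagen chaperone HSP47, was higher by 1.38, 1.20 and 1.15, and *P3h1*, a prolyl 3-hydroxylase, by 1.19, 1.31 and 0.80. *P3h2*, another enzyme of that kind, was lower at the MCE and differentiation stages, by -0.97 and -1.18, at no more than 1.37 TPM in any group mean. At such low values its calls may follow in part from the filter. Whether genes of these lists passed the filter through the libraries of 1 line alone was not examined. Of 16 genes for trimming, cross-linking and fibril assembly, 14 were tested, with 5 higher and 1 lower in preadipocytes, 7 and 1 at the MCE stage and 4 and 1 at the differentiation stage. *Sparc*, a collagen-binding matrix protein, was higher by 1.08, 2.04 and 1.44, *Bmp1*, which removes C-propeptides, by 1.13, 1.27 and 1.03, and its relative *Tll1* by 0.80, 3.01 and 2.06. *Fmod*, the fibril-binding fibromodulin, was lower in preadipocytes (-1.71) and at the differentiation stage (-2.07). The cross-linking enzyme *Lox* was not called at any stage, and *Loxl4* was called lower at MCE (-1.11). Of 10 collagen receptor and uptake genes, 6 were tested. In preadipocytes the uptake receptor *Mrc2* was higher (1.34), while *Ddr2* (-0.80) and the integrin chain *Itga10* (-1.25) were lower. At the MCE stage limma called 0 of the 6, and at the differentiation stage it called *Itga1* higher (0.68).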

How the data were processed

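RNA-seq values of 12 libraries from 6 groups were used (shScram and shFto cells at 3 stages, 2 libraries each), and samples were assigned by their titles. Per the submitters' processing notes and the paper's methods, adapters were removed by Trim Galore 0.6.5 and reads mapped by HISAT2 2.1.0 to the GRCm38 assembly. The authors deposited StringTie 2.1.4 abundances in TPM for the genes of Ensembl release 102. For their own comparisons they used DESeq2 1.30.1 on counts, which were not used here. Depth cannot be read from TPM, and precision is limited by having 2 libraries per group.

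Of 55487 genes, 15968 passed the filter (1 TPM in 2 or more libraries) and were tested on log2(TPM + 1) with limma 3.58.1 in R 4.3.3 (a mean per group over all 12 libraries, 6 residual degrees of freedom, eBayes with a trend, two-sided, Benjamini-Hochberg adjustment over all tested genes). The test was run on simulated data in which a gene had the same spread in all libraries. That check does not cover the wider spread of the shScram preadipocyte pair. Gene positions, GC content and exon overlaps came from GENCODE release M21, which held 99.4% of the identifiers, and promoter windows from RefSeq. Python 3.11.15, pandas 2.3.3, numpy 2.4.6 and matplotlib 3.10.9 were used for the other steps.

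Values of every library were given for the 2 most abundant members of each of the 4 large classes and for the 12 largest changes among the 14 members called between the lines with a fold change over 2 and a group mean of at least 5 TPM. *Col1a1*, *Col4a5*, *Col6a3*, *Col8a1* and *Col11a1* were added after their values were seen. The members, lists and rules were chosen with earlier results of these data known, and lists were described by counts and medians without a list test. Alternatives covered the pseudocount, low-value filters, scaling, GC content, the replicate number, the libraries in the fit, the call rule and each library left out.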

Additional observations from a re-analysis of the deposited data

Results flagged for a closer look

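In 7 cases the difference between the lines in a collagen gene changed between stages by the interaction test (limma, adjusted over all tested genes). From preadipocytes to the MCE stage, the difference of shFto from shScram grew for *Col23a1* by 2.68 on the log2 scale (a gene that passed the filter on low values through shFto libraries alone), for *Col12a1* by 1.43 (SE 0.19, adjusted p = 0.00459), for *Col28a1* by 1.09 (SE 0.25, adjusted p = 0.0428) and for *Col5a2* by 0.87 (SE 0.19, adjusted p = 0.0386). It shrank for *Col11a2*, with a value of -2.46 (SE 0.59, adjusted p = 0.0484), and for *Col20a1*, with -1.84 (SE 0.41, adjusted p = 0.0379). Without replicate 1 of the shScram preadipocytes these 2 values were -1.63 and -1.30 and both passed the test. From the MCE to the differentiation stage the difference grew for *Col28a1* by 1.36 (SE 0.25, adjusted p = 0.0272). *Col5a2*, *Col11a2*, *Col20a1* and *Col28a1* lost their calls from preadipocytes to the MCE stage under 14, 14, 13 and 13 of the 22 alternative settings, and *Col28a1* in the later step under 10.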

How the results depend on the processing

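Under 22 alternative settings per comparison, 4367 values of single genes stayed on their side of the threshold, 269 lost a call, 279 gained one and 8 that were called in either fit turned. Of the 4367, 80 changed sign, all without a call in either fit. The counts below are in the order preadipocytes, MCE and differentiation for shFto against shScram, then the step to MCE and the step to differentiation. With only the libraries of a comparison in the fit, 0, 18 and 19 genes were called between the lines (13 of 25 had an unadjusted limma p under 0.05 in the first case), 1 and 19 in the steps of shScram and 24 in the later step of shFto cells, and 2 and 12 in the interactions. The share of all genes called moved too, to 0%, 37.0% and 41.4% between the lines, 3.16% and 40.4% in the steps of shScram, 54.4% in the later step of shFto cells and 1.5% and 16.9% in the interactions. These fits hold 2 or 4 residual degrees of freedom and leave out the shScram preadipocytes except in the comparisons that use them. GC correction gave 16 calls at the MCE stage, 11 higher and 5 lower (26% of all genes), and the same with the replicate block (24.4%). In preadipocytes it gave 13 higher and 6 lower (28.7% of all genes), and in the later interaction 3 calls (5.42%). The study's fold and p thresholds gave 11 calls in the shFto step to MCE (16% of all genes) and 2 in the later interaction (5.77%). For the interaction to MCE a pseudocount of 0.1, no filter and the replicate block gave 3 calls each (3.94%, 2.2% and 3.46% of all genes). For the later interaction a pseudocount of 0.1 and the replicate block gave 0 (1.27% and 1.61% of all genes), with 5 and 6 genes at an unadjusted p under 0.05.

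No pairing of libraries by replicate number was seen, as deviations of equal numbers correlated between -0.29 and 0.17 over the 15 pairs of groups. Trends within single libraries, such as that with GC content, could mask a pairing, so these correlations cannot settle it. With the replicate block 14, 9 and 12 genes were called between the lines (23.9%, 15.2% and 18.9% of all genes). Quantile normalization moved the median of all genes from 0.08 to -0.05 between the lines in preadipocytes, from -0.17 to -0.03 and 0.23 to 0.01 in the steps of shScram, and from -0.18 to 0.01 and 0.17 to -0.05 in those of shFto cells.

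Leaving out 1 library at a time gave 9 to 21, 5 to 19 and 6 to 19 calls between the lines, 12 to 21 and 9 to 20 in the steps of shScram, 10 to 24 and 9 to 21 in those of shFto cells, and 2 to 22 and 0 to 12 in the interactions. Over the same fits 7.32% to 62.8%, 7.61% to 41.0% and 10.3% to 45.7% of all genes were called between the lines, 20.6% to 64.7% and 10.1% to 52.0% in the steps of shScram, 16% to 51.1% and 12.6% to 51.0% in those of shFto cells, and 1.60% to 52.5% and 0.783% to 17.1% in the interactions. A lone library was then assumed to vary like the other groups. With GC correction, with or without the block, *Col1a1* turned between the lines in preadipocytes (-0.45). Over the fits with 1 library left out it ranged from -0.38 to 0.86 and *Col5a3* from -0.90 to 1.17 in that comparison. In the shScram step to MCE *Col16a1* ranged from -0.41 to 2.27, *Col11a2* from -0.41 to 1.26 and *Col5a1* from -0.87 to 0.87, and *Col5a1* in the interaction to MCE from -0.87 to 0.87. The lowest values of the first 5 and the highest of the last came without replicate 1 of the shScram preadipocytes. The opposite ends of these ranges came without replicate 2 of that group. The cause was not tested.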
